A study of Mus musculus with 3 samples.

Results

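The 8 genes described here encode sensors, the adaptor, inflammatory caspases and the pore-forming effector of the inflammasome: Nlrp3, Nlrp1b, Nlrc4, Nek7, Pycard, Casp1, Casp4 and Gsdmd. They were chosen by symbol, and all 8 were found once among the 32285 genes of the count matrices. Single-cell RNA sequencing was performed on bone marrow-derived macrophages (BMDMs) of female C3H/HeN mice aged 6 to 8 weeks, which were left untreated (Ctrl, labelled UI) or exposed to 1 µg/mL of lipoproteins purified from Borrelia burgdorferi, the agent of Lyme disease, and collected after 1 hour (LP1) or after 4 hours (LP4). Per the methods of the study, untreated cells received PBS and were collected at 4 hours, the macrophages were grown from bone marrow in medium conditioned by L929 cells, and cells of 3 wells, from 3 mice, were pooled for each library. Each condition is 1 library, no genotype or allele separates the groups, and no test between conditions was possible. The comparisons therefore ask how far the levels of these genes lay apart in these 3 libraries, and every interval below covers counting error only, not the spread between cultures or animals.

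In the canonical pathway, a sensor such as NLRP3, NLRP1B or NLRC4 detects a sign of infection or damage and, directly or through the adaptor ASC (encoded by Pycard), recruits and activates caspase-1, which cleaves pro-IL-1β, pro-IL-18 and gasdermin D. In the non-canonical pathway, mouse caspase-11 (encoded by Casp4) binds lipopolysaccharide in the cytosol and cleaves gasdermin D without a separate sensor. The paper lists a lack of lipopolysaccharide among the features of Borrelia burgdorferi. In both pathways the gasdermin D fragment forms the membrane pore of pyroptosis. In macrophages some of these proteins, but not all, act fully only after a priming signal, such as a Toll-like receptor ligand, has raised their transcription.

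After limits on barcodes (over 500 UMIs, over 500 genes and under 5% mitochondrial UMIs), 6071 Ctrl, 5065 LP1 and 4670 LP4 cells remained, with between 35688939 and 61402275 UMIs per library. A UMI, or unique molecular identifier, marks 1 captured RNA molecule. The median depth per cell differed between the libraries: 5133 UMIs for Ctrl, 9343 for LP1 and 11784 for LP4, so shares of cells with a UMI are given after each cell was thinned to 2000 UMIs, and levels are given as UMIs per 1000000 UMIs of the library (CPM). The levels carry no correction for gene length and are compared between libraries, not between genes. All 10 macrophage markers reached at least 10 CPM in every library, with summed levels between 17500 and 20561 CPM, against 452 to 708 CPM for 11 neutrophil markers, 223 to 236 CPM for 10 dendritic cell markers and 4.29 to 19.7 CPM for 6 stromal markers. The neutrophil and stromal sums were highest in LP4, and their part in the values below was not tested. Only 19 barcode sequences occurred in more than 1 library.

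The largest differences among the 8 genes were found at 4 hours and went in opposite directions along the pathway. Nlrp3 stood 2.91-fold lower in LP4 than in Ctrl, whereas Casp1 stood 2.08-fold and Casp4 2.34-fold higher. Pycard was lower and Nek7 higher by less than 2-fold, and Gsdmd differed least. In LP1, Pycard alone lay clearly above Ctrl, and no gene of the 8 differed by 2-fold.

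To show the regulatory sequence beside the genes at the ends of this range, the 250 bases before a RefSeq start site are given for Nlrp3, Casp1 and Casp4. All are on the plus strand of GRCm38.p6, at chr11:59541319-59541568, chr9:5298267-5298516 and chr9:5308599-5308848. Capitals mark matches, on either strand, to the kappaB consensus (bound by NF-κB) or to the IRF core AANNGAAA (bound by interferon regulatory factors).
Nlrp3: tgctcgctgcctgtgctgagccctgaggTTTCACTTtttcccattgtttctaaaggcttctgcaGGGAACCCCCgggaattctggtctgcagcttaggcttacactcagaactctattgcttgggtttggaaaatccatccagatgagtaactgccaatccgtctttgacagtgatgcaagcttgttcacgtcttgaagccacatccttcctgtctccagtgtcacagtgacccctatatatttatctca
Casp1: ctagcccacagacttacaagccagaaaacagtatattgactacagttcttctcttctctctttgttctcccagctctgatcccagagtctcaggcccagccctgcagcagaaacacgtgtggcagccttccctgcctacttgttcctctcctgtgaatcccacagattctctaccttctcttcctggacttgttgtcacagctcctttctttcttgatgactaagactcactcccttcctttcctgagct
Casp4: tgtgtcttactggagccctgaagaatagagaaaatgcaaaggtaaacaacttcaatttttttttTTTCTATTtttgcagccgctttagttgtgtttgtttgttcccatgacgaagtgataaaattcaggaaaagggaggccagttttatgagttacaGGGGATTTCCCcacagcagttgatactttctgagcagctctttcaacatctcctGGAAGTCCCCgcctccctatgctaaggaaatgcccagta

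The promoter table held windows of 300 bases, from 250 before to 50 after a start site, for 7 of the 8 genes (10 windows). Casp4 had 3 kappaB matches, of which 2 overlapped at bases -93 to -84 and -92 to -83, and the third lay at -39 to -30, counted from the start site. It had IRF core matches at -186 to -179 and, beyond the stretch printed above, at 3 to 10. In the Nlrp3 window shown, a kappaB match lay at -186 to -177 and an IRF core match at -222 to -215. The other Nlrp3 window held 2 IRF core matches, each Nlrp1b window 1, and the Pycard window 1, at -160 to -153. No match to these motifs, to the GAS element TTCNNNGAA or to the AP-1 site TGANTCA was found in the windows of Casp1, Nlrc4 or Nek7. Of all 32851 promoter windows in the table, 8.46% held a kappaB match, 23.9% an IRF core, 8.30% a GAS element and 7.81% an AP-1 site. A match is a description of the letters in the window and not evidence of binding.

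Among the sensors, Nlrp3, whose protein responds to potassium efflux and membrane damage, lies on chromosome 11 at 59541568 to 59566956 on the plus strand (GRCm38, as are the positions below). The untreated library had 573 CPM of Nlrp3 (95% Poisson interval 565 to 581), the 1-hour library 533 CPM (527 to 539) and the 4-hour library 197 CPM (193 to 200), from 20436, 27981 and 12076 UMIs. LP4 was thus low and the other libraries lay close together. The log2 ratio of CPM was -0.10 (95% counting interval -0.13 to -0.08) when LP1 was set over Ctrl, -1.54 (-1.57 to -1.51) when LP4 was, and -1.44 between LP4 and LP1. Only 5.8% of the 12714 genes with at least 50 UMIs over LP4 and Ctrl had as low a ratio. After thinning, a Nlrp3 UMI was held by 62.6%, 60.6% and 28.2% of cells in the same order. Cells with a UMI held 3.97, 5.88 and 3.69 Nlrp3 UMIs on average at their own depth, and the highest count in 1 cell was 48, in LP4.

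Nlrp1b, a sensor that anthrax lethal factor cleaves and activates in some mouse strains, was the least abundant of the 8 in UMIs, with 139, 240 and 135 UMIs in Ctrl, LP1 and LP4. This corresponds to 3.89 CPM (3.27 to 4.60), 4.57 CPM (4.01 to 5.19) and 2.20 CPM (1.84 to 2.60). The intervals of Ctrl and LP1 overlapped, and LP4 lay below both. Over Ctrl, the log2 ratio was 0.23 (-0.08 to 0.54) at 1 hour and -0.82 (-1.18 to -0.47) at 4 hours. Nlrp1b (chromosome 11, 71153102 to 71230733, minus strand) belongs to a family of similar neighbouring genes, so its reads may be split with Nlrp1a, which had 6, 10 and 18 UMIs.

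Nlrc4, on chromosome 17 (74425438 to 74459142, minus strand), encodes the protein that joins NAIP receptors bound to flagellin or type III secretion proteins. Untreated cells had 19.9 CPM (18.5 to 21.4), LP1 cells 18.1 CPM (17.0 to 19.3) and LP4 cells 13.0 CPM (12.1 to 14.0). LP4 was lowest, and the intervals of the other libraries overlapped. The log2 ratio of LP4 over Ctrl was -0.61 (-0.76 to -0.46), and 3.87%, 3.56% and 2.96% of thinned Ctrl, LP1 and LP4 cells held a UMI. All 3 sensors were therefore lowest in LP4, with Nlrp3 the most so.

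**Figure D1:**
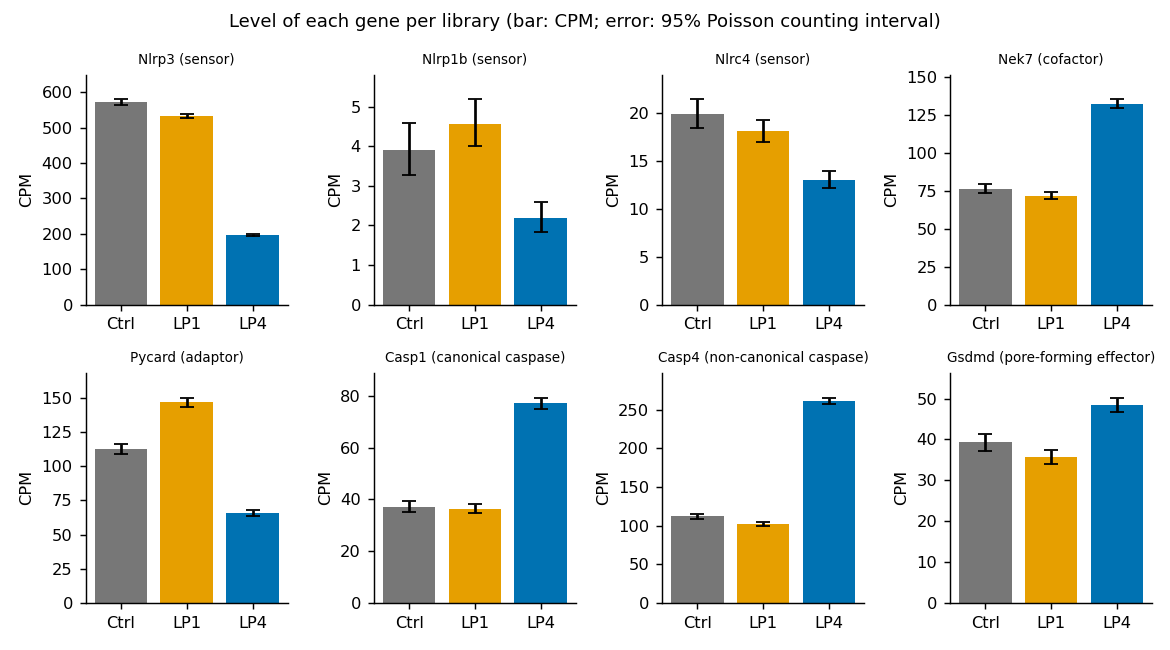
Level of each of the 8 genes in the Ctrl, LP1 and LP4 libraries, as bars of CPM from 0 with 95% Poisson counting intervals (1 library each). Nlrp3, Nlrp1b, Nlrc4 and Pycard are lowest in LP4, while Nek7, Casp1, Casp4 and Gsdmd are highest there.

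Nek7, which encodes a kinase that binds NLRP3 and is needed for its assembly, lay on the other side of Ctrl from Nlrp3 at 4 hours. Its level of 76.3 CPM (73.5 to 79.2) without lipoproteins compared with 71.8 CPM (69.5 to 74.1) at 1 hour and 133 CPM (130 to 136) at 4 hours. LP4 was high and the other libraries lay close together. The log2 ratio was -0.09 (-0.16 to -0.02) for LP1 and 0.80 (0.73 to 0.86) for LP4 over Ctrl, and 14.6% of all genes had as high a ratio in LP4. Nek7 (chromosome 1, 138482875 to 138620141, minus strand) overlaps an antisense gene, Gm28501, which had 29, 20 and 116 UMIs against 2723, 3769 and 8142 for Nek7.

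Pycard (chromosome 7, 127989708 to 127993867, minus strand) had its highest level at 1 hour. From 113 CPM (109 to 116) in untreated cells it stood at 147 CPM (144 to 150) at 1 hour and 65.7 CPM (63.7 to 67.8) at 4 hours, with no overlap between the intervals. The log2 ratio over Ctrl was 0.38 (0.33 to 0.44) at 1 hour, a value that 10.6% of all genes reached, then -0.78 (-0.84 to -0.72) at 4 hours, and -1.16 for LP4 over LP1. The adaptor was thus the gene of the 8 with the largest ratio of LP1 over Ctrl, and at 4 hours it lay below Ctrl. Thinned cells gave the same order, with a Pycard UMI in 18.4%, 24.0% and 10.7% of them.

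The canonical caspase, Casp1, and the non-canonical caspase, Casp4, are neighbours on the plus strand of chromosome 9, at 5298517 to 5307265 and 5308828 to 5336783, with 1562 bp between them. Casp1 had 37.1 CPM (35.2 to 39.2) in untreated cells, 36.4 CPM (34.8 to 38.1) at 1 hour and 77.1 CPM (74.9 to 79.3) at 4 hours. Casp4 had 112 CPM (108 to 115), 102 CPM (99.5 to 105) and 262 CPM (258 to 266). Both were high in LP4 alone, and for Casp1 the intervals of Ctrl and LP1 overlapped. For Casp1 the log2 ratio was -0.03 (-0.13 to 0.07) in LP1 and 1.05 (0.97 to 1.14) in LP4 over Ctrl. For Casp4 it was -0.13 (-0.19 to -0.07) and 1.23 (1.18 to 1.28). The small LP1 differences of Nek7, Casp4 and Gsdmd depended on scaling, since under TMM scaling their intervals included 0. In LP4, 10.3% of all genes had a ratio as high as Casp1 and 8.0% one as high as Casp4, so neither was rare among all genes at that time. A Casp1 UMI was present in 6.91%, 6.83% and 14.0% of thinned Ctrl, LP1 and LP4 cells. A Casp4 UMI was present in 19.9%, 18.6% and 40.1%.

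The ratio of Casp4 to Casp1 UMIs within a library does not depend on how libraries are scaled. The 3 libraries had ratios of 3.01 (2.83 to 3.21), 2.81 (2.66 to 2.96) and 3.39 (3.28 to 3.51) in the order Ctrl, LP1 and LP4. Over all cells, the non-canonical caspase thus gained a little on the canonical one at 4 hours. The log2 ratio of ratios over Ctrl was 0.17 (0.07 to 0.27), against -0.10 (-0.22 to 0.02) at 1 hour. In cluster A of the clusters described below, Casp4 instead rose less than Casp1 from Ctrl to LP4, with log2 ratios of 0.73 and 1.14. From LP1 to LP4 both had 0.92 there. A limit on the ratios of cluster A is given with the clusters. The balance of Nlrp3 to Casp1 moved much further, which does not hold for every sensor, since Naip2, Aim2 and Mefv, given below, were higher in LP4. Nlrp3 UMIs per Casp1 UMI were 15.4, 14.6 and 2.55 in that order, and Nlrp3 UMIs per Pycard UMI were 5.08, 3.63 and 2.99.

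Gsdmd, the effector that both pathways share (chromosome 15, 75862327 to 75867408, plus strand), had 39.3 CPM (37.2 to 41.4) without lipoproteins, 35.7 CPM (34.1 to 37.3) after 1 hour and 48.5 CPM (46.8 to 50.3) after 4 hours. The library at 4 hours was highest, by less than the caspases. Its log2 ratio was -0.14 (-0.24 to -0.04) in LP1 and 0.30 (0.21 to 0.40) in LP4 over Ctrl, and 30.3% of all genes had as high a ratio in LP4. Gsdmd UMIs per Casp1 UMI were 1.06, 0.980 and 0.629 in Ctrl, LP1 and LP4.

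**Figure D2:**
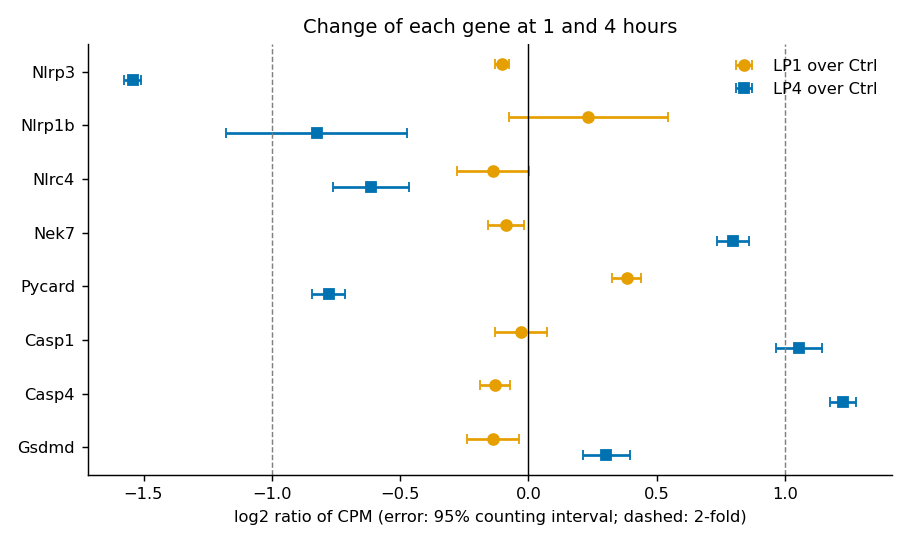
Log2 ratio of CPM of each gene for LP1 (circles) and LP4 (squares) over Ctrl, with 95% counting intervals and dashed lines at 2-fold. All LP1 points lie between -0.14 and 0.38, and the LP4 points run from -1.54 for Nlrp3 to 1.23 for Casp4.

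Set beside all genes with at least 50 UMIs over both libraries compared, the counts of the 8 at 2-fold were as follows. In LP1 over Ctrl, 0 of the 8 genes were at least 2-fold higher and 0 lower, against 1.09% and 1.62% of 12526 genes. In LP4 over Ctrl, 2 were higher (Casp1 and Casp4) and 1 lower (Nlrp3), against 11.1% and 13.6% of 12714 genes. In LP4 over LP1, 2 were higher (the same caspases) and 3 lower (Nlrp3, Nlrp1b and Pycard), against 9.83% and 11.1% of 12878 genes. With as few as 8 genes, these counts do not set it apart from the background. The median log2 ratio of the 8 over Ctrl was -0.10 at 1 hour and -0.15 at 4 hours, beside -0.03 and -0.13 for all genes. With the mean over cells of the share of UMIs in place of the summed UMIs, the log2 ratio of Casp1 in LP4 over Ctrl was 0.96, just under 2-fold.

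At the cells' own depth the shares with a UMI were larger and followed depth as well as level. In the order Ctrl, LP1 and LP4, Nlrp3 was found in 84.9%, 93.9% and 70.2% of cells, Casp4 in 42.8%, 57.4% and 90.2%, and Casp1 in 18.9%, 29.9% and 54.8%. For 6 of the 8 genes (all but Pycard and Nlrp1b) the own-depth share was higher in LP1 than in Ctrl, while the thinned share was not. No cell type in the culture is sure to lack these transcripts. As the nearest comparison, the stromal-like cells (61 in all, of which 20 were thinned in LP4) held a Casp4 UMI in 35.0% (15.4 to 59.2) and a Nlrp3 UMI in 40.0% (19.1 to 63.9) of thinned LP4 cells, and a Pycard UMI in 0 of 20, which allows a share of up to 15%. These cells had a median depth of 15488 UMIs in LP4 and also carried 5 of 10 macrophage markers in most of their cells, so free RNA and doublets may add to all shares given here, and their part was not tested. The neutrophil-like cells, 86 in all, held no Casp1 UMI in Ctrl or LP1 (32 and 25 cells, median 2940 and 5891 UMIs), which allows shares of up to 9.38% and 12%. At their own depth, with a median of 9303 UMIs, 8 of their 29 LP4 cells held one. After thinning, 1 of 29 LP4 cells (3.45%, 0.09 to 17.8) held one, beside 0 of 21 in Ctrl and 0 of 21 in LP1.

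**Figure D3:**
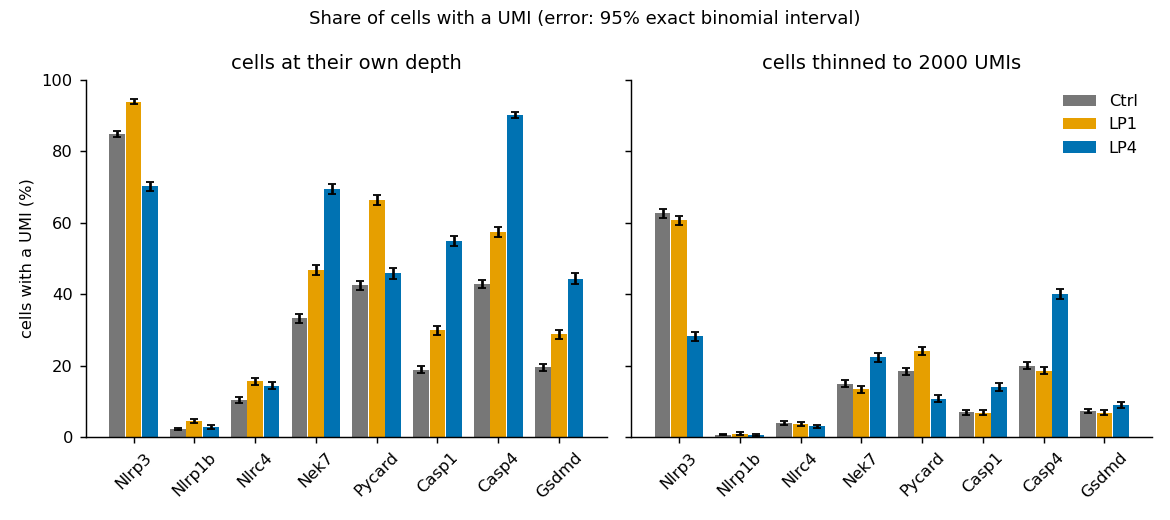
Share of cells with at least 1 UMI of each gene in Ctrl, LP1 and LP4, at the cells' own depth (left) and after thinning to 2000 UMIs (right), as percent with 95% exact binomial intervals. After thinning, the Nlrp3 share is 28.2% in LP4 against 62.6% in Ctrl, and the Casp4 share is 40.1% against 19.9%.

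Joint detection in thinned cells was set beside the product of the single shares for 9 combinations in each library. The product lay within the 95% exact binomial interval of the joint share in 20 of these 27 cases, and below it in 7. The interval leaves out the error of the product itself, and no allowance was made for 27 comparisons. Nlrp3 and Pycard were both present in 11.5%, 14.4% and 2.75% of Ctrl, LP1 and LP4 cells, beside products of 11.5%, 14.6% and 3.03%. All of Nlrp3, Pycard and Casp1 were present in 0.941%, 0.851% and 0.389%, beside 0.797%, 0.994% and 0.423%. Casp1 and Casp4 were both present in 1.34%, 1.19% and 5.90%, beside 1.38%, 1.27% and 5.61%. Few cells thus showed a whole canonical set at this depth. For Casp4 and Gsdmd, the caspase and effector of the non-canonical pathway, the joint share was 1.80% (1.48 to 2.17) in Ctrl, beside 1.45%. It was 1.60% (1.28 to 1.99) in LP1, beside 1.27%, and 3.57% in LP4, beside 3.64%. The products in Ctrl and LP1 lay only just below the intervals. Nlrp3 with Il1b was above its product in all 3 libraries, with 26.4% beside 24.1% in Ctrl, and Casp4 with Il1b in Ctrl and LP1. Whether the kinds of cells in the culture account for this was not tested. The mean number of the 8 genes found per thinned cell was 1.35, 1.35 and 1.28, and their summed level was 974, 949 and 797 CPM.

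To ask whether the differences belonged to some kinds of cells, cells were clustered without these genes or the pathway lists, and 7 of 10 clusters (A to G) had at least 50 cells in every library. Clusters A to E were macrophage-like, with 7 to 9 of 10 macrophage markers in at least 50% of their cells. Cluster F was named cycling-like and G dendritic cell-like from their leading genes. By the same measure F had 9 and G 7 of the macrophage markers, so these names do not set them apart from macrophages. None of A to E had a macrophage marker among its 10 leading genes, and those of E included the DNA replication genes Mcm3, Mcm4, Mcm5 and Mcm6 and the cell cycle gene Ccnd1. Cluster C had Itgax, a dendritic cell marker, among its leading genes, so clusters are compared by letter and not as 1 class.

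Nlrp3 was lower in LP4 than in Ctrl in 7 of 7 clusters, with log2 ratios from -1.82 in B to -1.10 in C. In Ctrl its level ran from 359 CPM in C to 725 CPM in A, so the cluster with the smallest difference was also the one with the lowest Ctrl level. In clusters under the minimum of cells, the Nlrp3 ratio was also below 0 in neutrophil-like cells, at -1.01 (-1.59 to -0.43). It was -0.89 (-2.69 to 0.96) in unnamed cells, from 6 UMIs in Ctrl and 7 in LP4. In stromal-like cells it was 0.83 (0.33 to 1.37), from 39 UMIs in 21 Ctrl cells and 173 in 20 LP4 cells. Their thinned Nlrp3 shares were 38.1% in Ctrl and 40.0% in LP4. Pycard was lower in LP4 in 7 of 7 clusters (-1.10 in A to -0.48 in C) and higher in LP1 in 7 of 7 (0.24 in F to 0.65 in G), with every interval on its side of 0. Casp1 was higher in LP4 in 7 of 7 clusters, over a narrow span from 0.89 in B to 1.14 in A.

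Casp4 was also higher in 7 of 7, but its ratios spread from 0.73 in A to 1.69 in E, with intervals that did not overlap. Its Ctrl level was 190 CPM in A and 76.6 CPM in E, and its LP4 level 315 CPM in A and 247 CPM in E, so these clusters lay closer together in LP4 than in Ctrl. In A the Casp4 ratio was below that of Casp1 (1.14), so Casp4 lost on Casp1 there, whereas in each of B to G it was above. At a finer resolution of 0.8, cluster A split by library: 84.2% of its Ctrl cells and 5.00% of its LP4 cells fell in 1 finer cluster, and 8.49% and 83.5% in another. The Casp4 log2 ratio within those finer clusters was 0.87 (0.66 to 1.07) and 1.20 (0.92 to 1.48), both above that of A as a whole, in which most Ctrl and most LP4 cells belonged to different finer clusters. The LP4 over Ctrl ratios of the other genes in A carry the same limit. Nek7 was higher in 7 of 7 clusters, from 0.24 in G, where the interval included 0, to 1.10 in F. Gsdmd was higher in 6 of 7, from -0.14 in F to 0.55 in D, with 4 intervals above 0. Nlrc4 was lower in 7 of 7, from -1.20 in A to -0.01 in E, with 3 intervals below 0. Nlrp1b had at most 50 UMIs per cluster in Ctrl and LP4 and is not compared there.

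**Figure D4:**
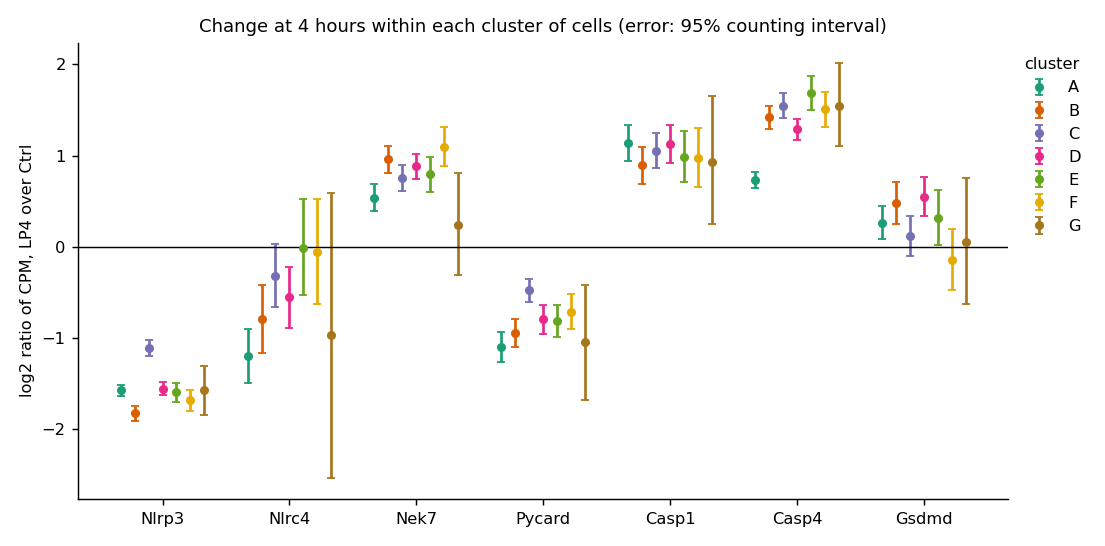
Log2 ratio of CPM, LP4 over Ctrl, of 7 genes within each of clusters A to G, with 95% counting intervals (1 library per condition). Points for Nlrp3 and Pycard lie below 0 and those for Casp1 and Casp4 above 0 in all 7 clusters, and Casp4 in cluster A (0.73) lies under the other 6.

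Other genes of the pathway were placed in lists by role. In LP1, 0 of the listed genes with enough UMIs was 2-fold apart from Ctrl. Of all 12526 genes, 1.09% were at least 2-fold higher and 1.62% lower, so this count does not set the lists apart. The list medians in LP1 lay between -0.12 and 0.43, beside -0.03 for all genes. In LP4 over Ctrl, 11.1% of all 12714 genes were at least 2-fold higher and 13.6% lower, and the counts of each list are to be read beside these shares. The lists were chosen with earlier results of these data known. In LP4, the substrates and antagonists had 4 of 5 at least 2-fold higher and 0 lower. Il1b, the cytokine precursor that caspase-1 cleaves, had 391, 448 and 940 CPM in the order Ctrl, LP1 and LP4. The LP4 over Ctrl log2 ratio was 1.26 for Il1b, 1.48 for Il1a and 1.24 for Il18. Il1rn, which encodes the receptor antagonist of IL-1, had the highest ratio of the list at 1.88.

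Among 10 other sensors, 5 had enough UMIs in LP4 and Ctrl, of which 3 were at least 2-fold higher and 1 lower. Naip2, a receptor for type III secretion rod protein that acts through NLRC4, had a log2 ratio of 1.93 (33.8 CPM in Ctrl and 129 in LP4), the opposite side from Nlrc4. Aim2, the sensor of cytosolic DNA, had 1.21 and Mefv, which encodes pyrin, 1.22, and Nlrp10, with 98 and 69 UMIs, had -1.29. Reads of Naip2 may be split with the similar genes Naip1, Naip5 and Naip6.

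Of the other caspases and death effectors, 4 of 9 were higher and 1 lower. Casp12, which lies in the same caspase family as Casp4, had only 5 UMIs in Ctrl and 258 in LP4 (log2 ratio 4.91, 3.67 to 6.54). Mlkl, the pore-forming protein of necroptosis, had 2.11, Casp8 1.04 and Zbp1 1.03, and Gsdme, another gasdermin, had -1.33. Ninj1, which ruptures the membrane after pore formation, had 0.28 and Ripk1 0.19.

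Triggers and regulators gave 4 of 11 higher and 0 lower. Gbp5, Gbp3 and Gbp2 had log2 ratios of 5.21, 3.57 and 3.36. They encode guanylate-binding proteins, a family of which some open bacterial vacuoles and expose lipopolysaccharide to caspase-11. The paper notes that GBP5 promotes assembly of the NLRP3 inflammasome. Txnip, a protein that can bind NLRP3, had 1.02, and Tnfaip3, which encodes the inhibitor A20, 0.20. Pstpip1, which encodes a partner of pyrin, had -0.89. A further list held genes that the study joined to NLRP3, chosen on these same samples and so not independent. Its 4 genes were split in LP4 over Ctrl: Il1f9 had 3.06, Ccrl2 0.47, Cxcl1 0.13 and Cxcl2 -1.56. The paper reports these genes and Nlrp3 as upregulated by lipoproteins at both times, in these libraries and by RT-PCR in further cultures. By ELISA it also reports raised CXCL1 and CXCL2 protein in culture supernatants, with none found in PBS-treated cells. In the RNA of these libraries, the LP4 ratios of Nlrp3 and Cxcl2, at -1.54 and -1.56, ran the other way. The Ctrl library already held 20436 Nlrp3 and 156261 Cxcl2 UMIs. A supplementary list of the paper places both among genes higher in untreated cells than after the longer exposure. In LP1 over Ctrl, all 4 genes of the list had ratios above 0, and Nlrp3 had -0.10, or -0.03 under TMM scaling. The interval of Il1f9, with 31 UMIs in Ctrl and 58 in LP1, included 0. Cxcl2 had 0.06, and 38.2% of all genes had as high a ratio. The medians of these 5 lists in LP4 over Ctrl were 1.26, 1.21, 0.38, 0.31 and 0.30 in the order given, beside -0.13 for all genes.

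**Figure D5:**
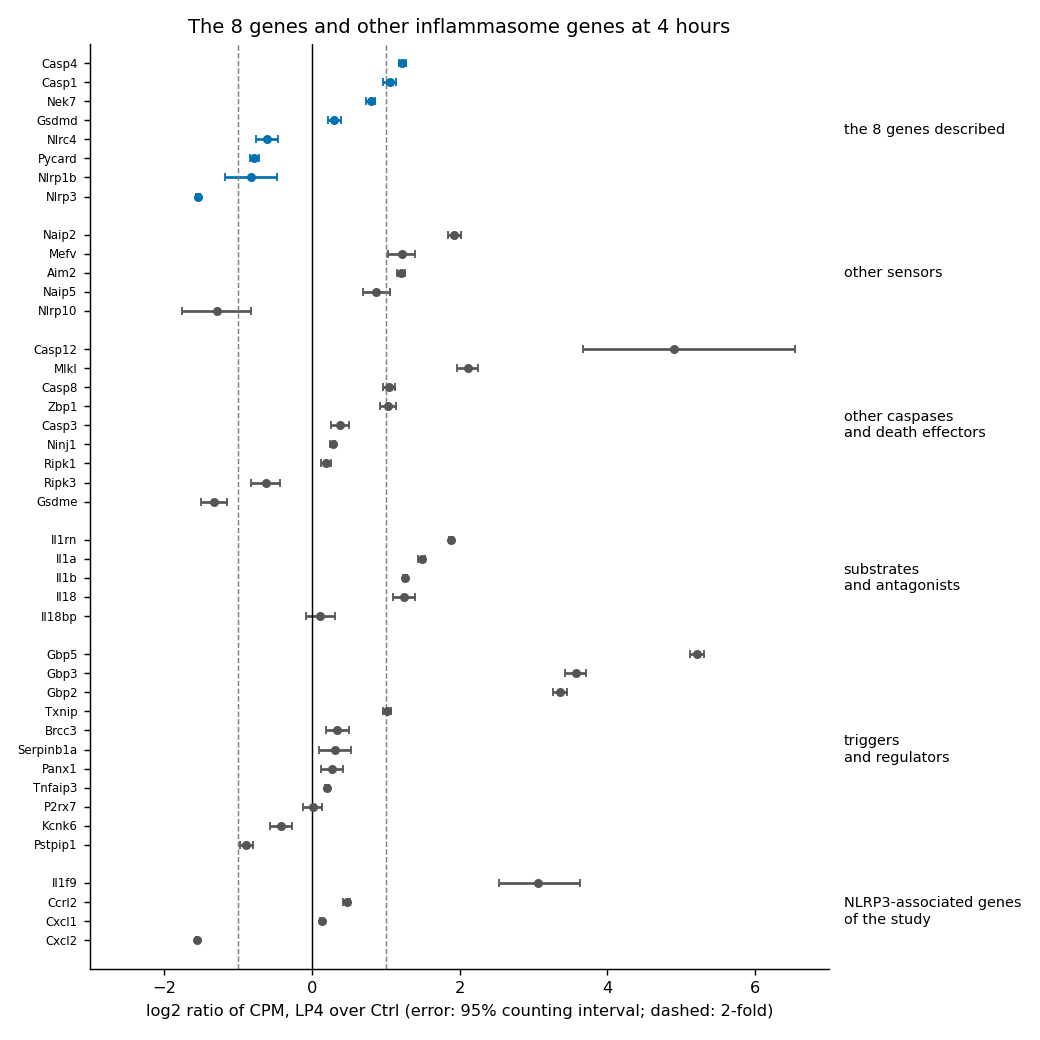
Log2 ratio of CPM, LP4 over Ctrl, of the 8 genes and of the other pathway genes with at least 50 UMIs over both libraries, grouped by list, with 95% counting intervals and dashed lines at 2-fold. Gbp5 (5.21) and Casp12 (4.91) are highest, and Cxcl2 (-1.56) and Nlrp3 (-1.54) lowest.

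The genes most like 3 of the 8 were found from Pearson correlations of log2 CPM over 21 sums, 1 for each of 7 clusters in each of 3 libraries, among 8102 genes. The sums of a library share its depth and treatment, so these values are a description. For Nlrp3 they were Gm14221 (0.981), Fosb (0.981) and Nr4a2 (0.980). Fosb and Nr4a2 are immediate early genes, and Fosb had 125, 77.9 and 1.47 CPM in the order Ctrl, LP1 and LP4. For Casp1 they were Samhd1 (0.969), Etv3 (0.966) and Cd274 (0.963), and for Casp4 Aff1 (0.976), Ifi202b (0.973) and Notch1 (0.969). All of the genes named for the caspases were higher in LP4 than in Ctrl, Samhd1 with 181 and 780 CPM and Aff1 with 286 and 1211 CPM.

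The limit on mitochondrial UMIs removed 273 barcodes from LP4 that passed the other limits. Per 1000000 non-mitochondrial UMIs, these held 179 Nlrp3 UMIs against 203 in the kept cells, 66.9 against 79.7 for Casp1, 229 against 270 for Casp4 and 90.6 against 67.9 for Pycard. The removed barcodes thus had less of both caspases and more of the adaptor than the kept ones, and still lay above Ctrl for Casp1 and Casp4 and below it for Nlrp3.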

How the data were processed

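Barcodes, features and UMI counts of 3 libraries, which the authors deposited as whole-number counts per gene and cell, were used. Per the file headers and the submitters' processing notes they came from Cell Ranger 7.1.0 on the mm10 reference, so reads of C3H/HeN mice were counted against another strain. Whether intronic reads were counted is not given in the sources used here. Neither the doses and times of the study's other assays nor its integrated clusters were analysed here.

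Cells with over 500 UMIs, over 500 genes and under 5% mitochondrial UMIs were kept. UMIs were summed per library and scaled to CPM. With 1 library per condition no test was run. Intervals (95%) are exact Poisson for CPM, exact conditional binomial for ratios between libraries and exact Clopper-Pearson for shares. For ratios of 2 genes, the intervals are exact binomial within a library and Wald for the ratio of ratios between libraries. They cover counting error only. A count of 0 was read as up to 3 counts. Genes with at least 50 UMIs over 2 libraries formed the background, and 2-fold was the threshold.

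Clusters came from 2000 genes among 5228 that differed by less than 1.5-fold between libraries, with 30 principal components, 20 neighbours and Leiden resolution 0.5 (scanpy 1.11.5). Each gene was centred within its library before the principal components were taken, which removes mean differences between libraries. This did not fully align their cells, since cluster A split by library at the finer resolution. The doublet caller marked at most 1 cell in a library and so had not worked. Doublets were therefore not removed. In an alternative, the 239 Ctrl, 220 LP1 and 164 LP4 cells with the highest scores of that caller were left out. TMM factors came from edgeR 4.0.16 and are scaling only. Thinning used seed 20 and left out 122 Ctrl, 13 LP1 and 45 LP4 cells with under 2000 UMIs. The ratio script was tested on simulated data.

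Positions were read from GENCODE vM21 (GRCm38), and promoter sequences from RefSeq for GRCm38.p6. Gm12250, listed among the triggers, has no symbol of its own in the matrix. A further listed gene is not reported here and was left out of its list. The 8 genes and the lists were chosen with earlier results of these data known. All 8 are named. A listed gene is named where its higher library had 50 CPM or more, or where its LP4 over Ctrl ratio was among the 4 largest of its list in either direction.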

Additional observations from a re-analysis of the deposited data

Results flagged for a closer look

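Of the 8 genes, 4 lay on opposite sides of Ctrl at 1 hour and at 4 hours with both counting intervals clear of 0. The share of all genes that met this rule was not counted, so the number is not read as particular to the 8. The log2 ratio over Ctrl was -0.09 in LP1 and 0.80 in LP4 for Nek7, 0.38 and -0.78 for Pycard, -0.13 and 1.23 for Casp4, and -0.14 and 0.30 for Gsdmd. Each comparison shares the Ctrl library and rests on 1 library per condition, so the difference between the times was not tested. Under TMM scaling the LP1 ratios were -0.0157 for Nek7, -0.0575 for Casp4 and -0.0666 for Gsdmd, with intervals that included 0, and 0.45 (0.40 to 0.51) for Pycard.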

How the results depend on the processing

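No paired analysis was possible because each condition has 1 library, and for the same reason no replicate could be left out. Of 240 alternative values for the ratios of single genes, 196 stayed within the counting interval and 44 moved outside it. The sign differed in 2, both for Casp1 in LP1 over Ctrl, at 0.0437 under TMM and 0.0479 under median of ratios against -0.0278, whose interval included 0. Of 72 alternative shares of cells, at other thinning depths or own depth, 70 moved. Over the alternatives the LP4 over Ctrl log2 ratio ran from -1.57 to -1.34 for Nlrp3, 0.96 to 1.26 for Casp1, 1.15 to 1.43 for Casp4 and 0.28 to 0.51 for Gsdmd. The median log2 ratio of the 8 depended on scaling. TMM gave -0.0235 for LP1 and 0.0150 for LP4 over Ctrl, median of ratios gave -0.0193, 0.0524 and, for LP4 over LP1, 0.11, thinned cells gave -0.0248 for LP4 over Ctrl, and a minimum of 10 CPM, which drops Nlrp1b, gave 0.30 and 0.44 for LP4 over Ctrl and over LP1. The all-gene median of LP4 over Ctrl moved up by 0.17 under TMM and 0.21 under median of ratios. The genes at 2-fold there became 13.8% higher and 10.3% lower under TMM and 14.6% and 9.76% under median of ratios, in place of 11.1% and 13.6%. With the mean of cell shares, 1 of the 8 was 2-fold higher in LP4. At 1.5-fold, 3 of the 8 were higher and 4 lower in LP4 over Ctrl, against 20.3% and 27.7% of all genes. With finer clusters (resolution 0.8) the lowest Pycard ratio of LP1 over Ctrl was -0.0383, and with coarser ones (0.3) the highest Casp4 ratio was -0.0278. Nlrp1b, with 135 to 240 UMIs, is limited most by depth.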
